A study of Mus musculus with 12 samples.

Results

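The genes described here encode surface proteins with which macrophages instruct T cells: the B7 family ligands Icosl, Cd80 and Cd86, the PD-1 ligands Cd274 and Pdcd1lg2, the TNF family ligand Tnfsf9, the receptor Cd40 and the receptor Cd226. They are 8 of the 46517 genes in the count table and were listed by name. The list was chosen by function together with measured values, since lower levels of Icosl and Cd226 in LYVE1+ cells had been seen in these same libraries. The LYVE1 comparison of all 8 genes is therefore given as a description: its calls are counted, also under the alternative settings, and nothing is read from them. The comparison of aorta with fat is the one used as a test, though for Icosl and Cd226 it shares the libraries in which they had been seen lower. Bulk RNA sequencing had been made from macrophages sorted by flow cytometry from adult wild type C57/BL6 mice, as live cells carrying CD45, CD64, MerTK, CD11b and F4/80, and divided by surface LYVE1, a hyaluronan receptor. Aortic cells came from 30 mice, and fat cells were taken from epididymal together with subcutaneous depots of 20 mice. Each of the 4 groups (aorta LYVE1+, aorta LYVE1-, fat LYVE1+ and fat LYVE1-) held 3 libraries, and none had received a treatment or carried a transgene, per the labels. No label tells if replicate libraries were separate animal pools, and the p-values measure only the spread between these libraries, which may be technical. In bulk RNA, fewer cells that express a gene and less RNA per cell cannot be told apart.

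A T cell needs a signal through its antigen receptor and a costimulatory signal. CD80 and CD86 on the antigen-presenting cell engage CD28, which activates, and CTLA-4, which restrains, while ICOS ligand engages ICOS on T cells that have already been activated. PD-L1 (Cd274) and PD-L2 (Pdcd1lg2) engage PD-1 and dampen the response. 4-1BB ligand (Tnfsf9) supports activated T cells through 4-1BB, CD40 receives CD40 ligand from T cells and raises the costimulatory capacity of the presenting cell, and CD226 is an adhesion and activating receptor of T cells, NK cells, platelets and some myeloid cells that binds PVR and nectin-2.

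Library totals ran from 5049936 to 29792301 counts. The sort markers followed the labels: Lyve1 was at 2040 to 2810 CPM (counts scaled to the size of the library) in aorta LYVE1+ against 868 to 1320 CPM in aorta LYVE1-, and at 1500 to 2190 CPM in fat LYVE1+ against 230 to 611 CPM in fat LYVE1-. All 7 gate genes were expressed in all groups. The fat libraries numbered 1 of both sorts stood apart, with 8.85% (LYVE1+) and 12.1% (LYVE1-) mitochondrial counts against 1.79% to 3.2% in the other libraries, and with erythroid transcripts at 25100 and 5210 CPM. Library names carry the prefix RMM or RHH, whose meaning the labels do not give: aorta LYVE1+ library 3 and all aorta LYVE1- libraries were RHH, and all others were RMM. In LYVE1- cells the prefix and the tissue therefore cannot be told apart. Aorta LYVE1+ is the only group with both prefixes, so values with the prefix in the model rest on its library 3 against its others.

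Per exonic length, Tnfsf9 and Cd86 were the most abundant of the 8 genes. The mean over the 12 libraries was 131 RPKM (CPM divided by the exonic length in kilobases) for Tnfsf9. Cd86 was at 116 RPKM and Cd40 at 29.8 RPKM. Icosl was at 11 RPKM, Cd274 at 8.2 RPKM and Cd80 at 4.84 RPKM. Cd226 was at 3.76 RPKM and Pdcd1lg2, the scarcest, at 0.608 RPKM. In every library Cd86 exceeded Cd80, its partner as a CD28 ligand, by 14.8-fold to 34.8-fold in RPKM.

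**Figure D1:**
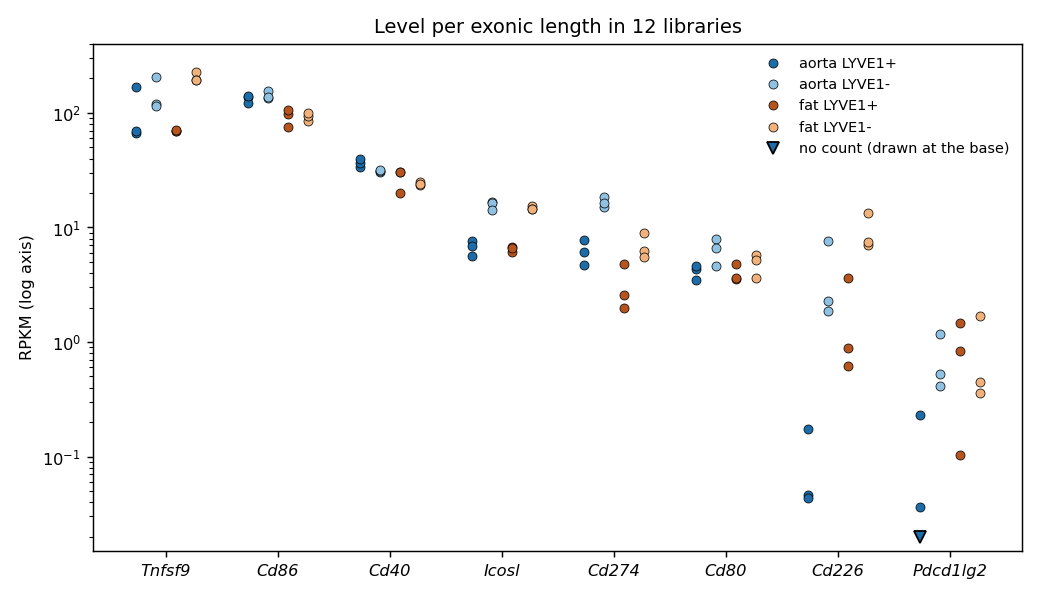
RPKM on a log axis for each of the 8 genes in each of the 12 libraries, coloured by tissue and sort; the triangle marks the library with no Pdcd1lg2 count. Tnfsf9 and Cd86 lie highest, and Cd226 and Pdcd1lg2 span the widest range between libraries.

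Icosl (ENSMUSG00000000732.8, chr10:78069302-78083913 on the plus strand, GRCm38) was lower in LYVE1+ macrophages of both tissues, with group means in aorta and fat that lay within the spread between libraries. In the aorta it measured 35.4, 26.2 and 32.0 CPM in the LYVE1+ libraries (31.2 ± 4.68 CPM, SD, n = 3) against 77.2, 76.2 and 66.3 CPM in the LYVE1- libraries (73.2 ± 6.01 CPM, SD, n = 3). The fat values were 31.1, 28.3 and 30.5 CPM in LYVE1+ (30.0 ± 1.46 CPM, SD, n = 3) against 71.5, 67.1 and 67.3 CPM in LYVE1- (68.7 ± 2.49 CPM, SD, n = 3). Every LYVE1+ library lay below every LYVE1- library, across tissues as well as within them. The difference was 2.35-fold in the aorta (log2 fold change -1.23, SE 0.14) and 2.29-fold in fat (log2 fold change -1.2, SE 0.14). Icosl came to 4.68% to 5.51% of the Cd86 RPKM in aorta LYVE1+ libraries and 10.5% to 12.3% in aorta LYVE1- libraries. In fat these shares were 6.22% to 8.89% in LYVE1+ and 14.6% to 18.3% in LYVE1-, so the ratio of Icosl to Cd86 was higher in LYVE1- cells of each tissue without overlap.

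The sequence just upstream of the Icosl start is shown because the Icosl difference between the sorts was nearly equal in size in both tissues. It covers 180 bases of RefSeq sequence (GRCm38.p6, chr10:78069122-78069301, plus strand), in lower case with no capitals since none of 5 searched motifs matched.

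Icosl: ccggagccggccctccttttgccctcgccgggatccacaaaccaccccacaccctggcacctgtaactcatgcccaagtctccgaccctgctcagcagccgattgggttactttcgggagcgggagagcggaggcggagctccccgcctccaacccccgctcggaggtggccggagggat

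The window was GC-rich, at 67.8% with 14 CpG dinucleotides, and 84.1% of the 32851 windows of this length in the table had a lower GC share. The motifs, searched on both strands, were the interferon-stimulated response element core (GAAA, any 2 bases, GAAA, in 2.01% of all windows), the STAT site (TTCNNNGAA, 4.88%), the PU.1 core (GAGGAA, 17.1%), the NF-kB site (2.86%) and the TATA box (TATAAA, 8.94%). No match says only that these letters are not in this window.

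Cd80 and Cd86, the paired ligands of CD28 and CTLA-4, had smaller fold changes between the sorts than Icosl, though those of Cd80 were also negative in both tissues. Cd80 (ENSMUSG00000075122.4, chr16:38455561-38496335, plus strand) measured 16.0, 12.9 and 17.1 CPM in aorta LYVE1+ and 29.2, 17.2 and 24.5 CPM in aorta LYVE1-. In fat it measured 13.1, 13.4 and 17.9 CPM in LYVE1+ and 21.2, 13.5 and 19.1 CPM in LYVE1-. The aortic sorts were separated by a narrow gap and the fat sorts overlapped, with log2 fold changes of -0.62 (SE 0.25) in the aorta and -0.27 (SE 0.25) in fat. Cd86 (ENSMUSG00000022901.12, chr16:36603869-36666081, minus strand) measured 509.3, 442.6 and 516.7 CPM in aorta LYVE1+ and 569.5, 490.3 and 499.8 CPM in aorta LYVE1-. Its fat values were 277.2, 361.2 and 388.2 CPM in LYVE1+ and 310.2, 343.0 and 366.4 CPM in LYVE1-. The sorts overlapped in both tissues (log2 fold changes of -0.09 and 0.01, SE 0.15 each), while all 6 aortic libraries lay above all 6 fat libraries.

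The PD-1 ligands are neighbours on chromosome 19 and differed widely in level. Cd274 (ENSMUSG00000016496.7, chr19:29367455-29388095, plus strand) measured 16.9, 28.4 and 22.3 CPM in aorta LYVE1+ (22.5 ± 5.76 CPM, SD, n = 3) against 66.9, 54.7 and 58.7 CPM in aorta LYVE1- (60.1 ± 6.21 CPM, SD, n = 3). In fat it measured 17.5, 7.19 and 9.27 CPM in LYVE1+ (11.3 ± 5.43 CPM, SD, n = 3) against 32.1, 22.5 and 20.0 CPM in LYVE1- (24.9 ± 6.4 CPM, SD, n = 3). LYVE1+ libraries lay below LYVE1- libraries in each tissue without overlap, by 2.67-fold in the aorta (log2 fold change -1.42, SE 0.29) and 2.25-fold in fat (log2 fold change -1.17, SE 0.31). Without fat LYVE1+ library 1, the highest of its group, the fat value was -1.59 on the log2 scale. An antisense gene annotated across Cd274 exons (AC119228.1) is not in the count table, and the library protocol does not mark strand, so reads from it cannot be told apart from Cd274 reads.

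Pdcd1lg2 (ENSMUSG00000016498.9, chr19:29410919-29471161, plus strand) had 0, 6 and 1 counts in aorta LYVE1+ and 12, 68 and 17 counts in aorta LYVE1-. These were 0, 0.451 and 0.0712 CPM against 0.803, 2.31 and 1.03 CPM. A count of 0 in aorta LYVE1+ library 1 allows up to 0.15 CPM, from 3 counts and for counting error only. In fat there were 15, 19 and 2 counts in LYVE1+ (2.88, 1.65 and 0.202 CPM) and 26, 9 and 7 counts in LYVE1- (3.33, 0.883 and 0.697 CPM). The aortic sorts did not overlap and the fat sorts did, with log2 fold changes of -3.01 (SE 1.3) and -0.07 (SE 1.1). The wide errors follow the low counts, and no order among the 3 higher groups was detectable at this depth.

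The windows upstream of both PD-1 ligand genes are shown because the genes lie side by side yet differed in level. Capitals mark the PU.1 core, which is read here from the minus strand.

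Cd274 (chr19:29367258-29367437, plus strand, GRCm38.p6): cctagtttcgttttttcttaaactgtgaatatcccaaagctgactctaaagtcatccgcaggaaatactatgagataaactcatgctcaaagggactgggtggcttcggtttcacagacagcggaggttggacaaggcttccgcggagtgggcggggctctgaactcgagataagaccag

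Pdcd1lg2 (chr19:29410739-29410918, plus strand, GRCm38.p6): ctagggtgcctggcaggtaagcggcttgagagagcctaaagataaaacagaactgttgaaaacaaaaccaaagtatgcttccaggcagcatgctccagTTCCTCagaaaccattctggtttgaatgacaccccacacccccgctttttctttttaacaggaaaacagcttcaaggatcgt

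The Cd274 window held 48.9% GC and 8 CpG dinucleotides, and none of the 5 motifs matched. The Pdcd1lg2 window held 46.1% GC and 3 CpG dinucleotides, with a single PU.1 core 82 bases before its end, a match that 17.1% of all windows share. Both lay well below Icosl in GC share, with 34.3% and 25.6% of all windows lower than them.

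Tnfsf9 (ENSMUSG00000035678.7, chr17:57105325-57107757, plus strand), the 4-1BB ligand, was lower in LYVE1+ cells of fat. There it measured 90.4, 90.6 and 91.5 CPM in LYVE1+ (90.8 ± 0.605 CPM, SD, n = 3) against 295.8, 249.8 and 248.6 CPM in LYVE1- (264.7 ± 26.9 CPM, SD, n = 3). The fat sorts were far apart, 2.91-fold (log2 fold change -1.54, SE 0.32). In the aorta it measured 86.1, 90.2 and 217.6 CPM in LYVE1+ and 265.0, 155.2 and 149.3 CPM in LYVE1-. The aortic sorts overlapped through LYVE1+ library 3, which alone in its group has the RHH prefix. The aortic log2 fold change of -0.53 (SE 0.32) was -1.1 without that library and -0.21 without aorta LYVE1- library 1. It was 0.20 with the prefix in the model and 0.20 among RHH libraries alone. Both of these values rest on LYVE1+ library 3, so the prefix and that library cannot be told apart. The lincRNA gene Gm11110 overlaps Tnfsf9 exons on the other strand and was counted at 0 to 2.42 CPM.

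Cd40 (ENSMUSG00000017652.15, chr2:165055627-165072948, plus strand), the receptor for T cell CD40 ligand, was the single gene of the 8 whose fold change was positive in both tissues. It measured 114.8, 125.5 and 135.8 CPM in aorta LYVE1+ and 103.2, 106.3 and 108.2 CPM in aorta LYVE1-. In fat it measured 68.5, 103.4 and 104.4 CPM in LYVE1+ and 84.3, 80.6 and 82.1 CPM in LYVE1-. The aortic sorts did not overlap, though the log2 fold change was 0.24 (SE 0.15), and in fat library 1 of the LYVE1+ group fell below all LYVE1- libraries while the other two lay above them (log2 fold change 0.17, SE 0.16, and 0.34 without that library).

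Cd226 (ENSMUSG00000034028.14, chromosome 18, plus strand) had the widest range of the 8 genes and was nearly absent from aorta LYVE1+ macrophages. There it had 17, 3 and 3 counts, or 0.853, 0.226 and 0.213 CPM (0.431 ± 0.366 CPM, SD, n = 3). Aorta LYVE1- libraries held 37.1, 9.12 and 11.2 CPM (19.2 ± 15.6 CPM, SD, n = 3). Fat LYVE1+ libraries held 17.7, 3.03 and 4.33 CPM (8.34 ± 8.09 CPM, SD, n = 3), and fat LYVE1- libraries held 65.9, 34.6 and 36.4 CPM (45.6 ± 17.6 CPM, SD, n = 3). The sorts did not overlap in either tissue, with LYVE1+ lower by 40.2-fold in the aorta (log2 fold change -5.33, SE 0.85) and by 5.74-fold in fat (log2 fold change -2.52, SE 0.69). Library 1 was the highest of its group in all 4 groups. Without fat LYVE1+ library 1 the fat log2 fold change was -3.63, without both fat libraries numbered 1 it was -3.27, and the aortic value was -4.43 without aorta LYVE1- library 1 and -6.37 without aorta LYVE1+ library 1.

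Since CD226 is carried by lymphocytes and platelets, the levels of their markers are given beside it, and their part in the Cd226 differences was not tested. The 13 T and NK cell markers summed to 15.8, 16.2 and 58.2 CPM in aorta LYVE1+ and to 46.3, 35.4 and 33.9 CPM in aorta LYVE1-. In fat they came to 317, 16.3 and 14.8 CPM in LYVE1+ and to 163, 19.6 and 28.7 CPM in LYVE1-. Fat library 1 of each sort was thus the highest both in these sums and in Cd226. None of the 13 was called between sorts in either tissue, with 6 negative and 7 positive log2 fold changes in the aorta and 1 negative and 12 positive in fat. Among the NK cell and cytotoxic genes of the list, Klrb1c and Gzmb had no count in aorta LYVE1+, against 63 and 28 counts in aorta LYVE1-. Ncr1 had 3 counts against 46, Gzma had 13 against 177 and Nkg7 had 45 against 111, all as raw counts not scaled for depth. The Nkg7 libraries overlapped between the aortic sorts, at 0.0501 to 2.92 CPM in LYVE1+ and 0.882 to 2.73 CPM in LYVE1-. Cd2, a T and NK cell adhesion receptor, was at 3.31 to 10 CPM in aorta LYVE1+ and 13.9 to 29.2 CPM in aorta LYVE1-, whereas the T cell receptor subunit genes Cd3d and Trac were at 1.13 to 3.91 and 1.43 to 4.48 CPM in aorta LYVE1+ against 0.134 to 0.543 and 0.0607 to 0.936 CPM in aorta LYVE1-. The 7 platelet and megakaryocyte markers summed to 7.61 to 11.5 CPM in aorta LYVE1+, 5.28 to 11.3 CPM in aorta LYVE1-, 1.21 to 5.57 CPM in fat LYVE1+ and 4.28 to 7.93 CPM in fat LYVE1-.

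**Figure D2:**
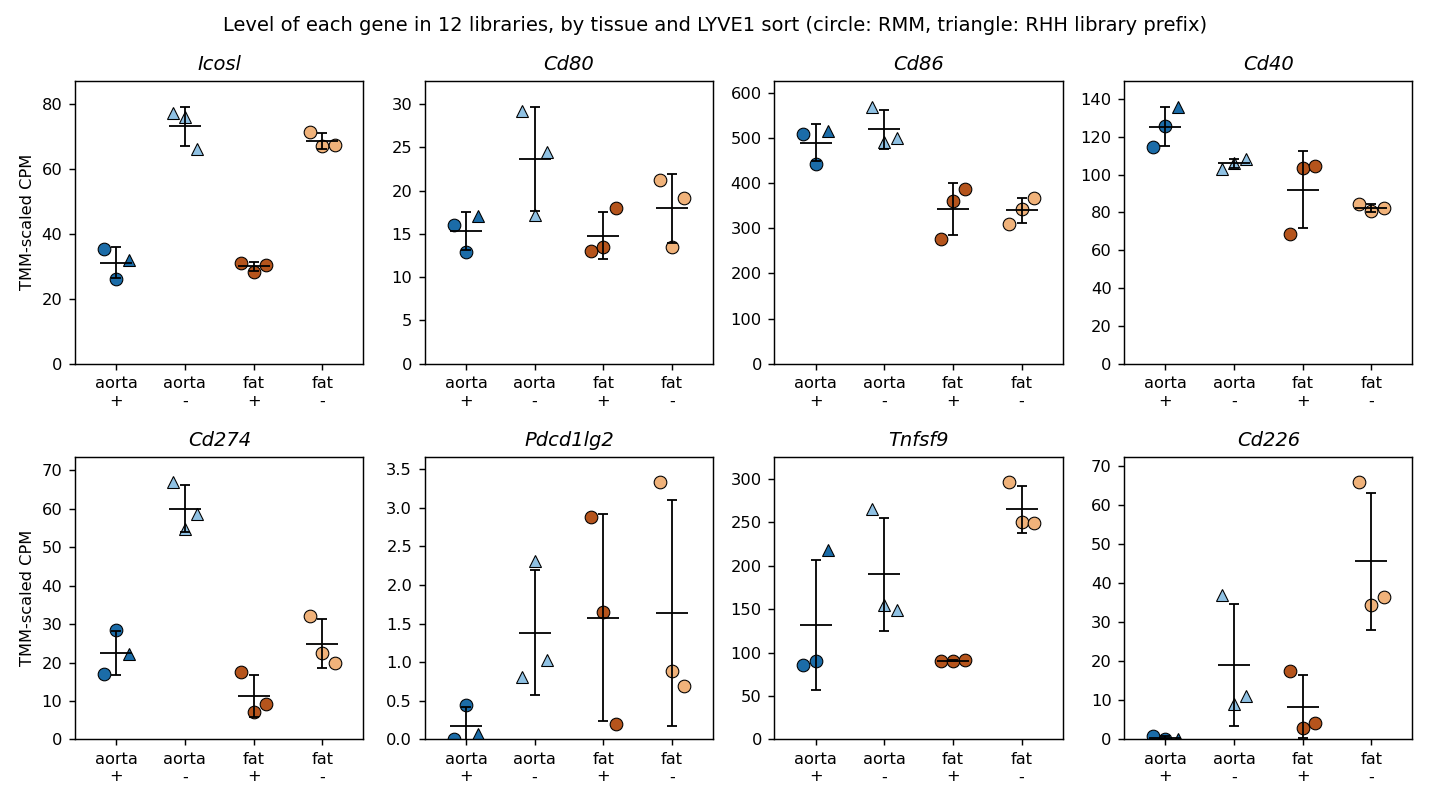
CPM after TMM scaling for each of the 8 genes in the 12 libraries, with the group mean and SD (n = 3); circles are RMM and triangles RHH libraries. Icosl, Cd274 and Cd226 have every LYVE1+ library below every LYVE1- library of its tissue, and Cd86 has every aortic library above every fat library.

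In the comparison of sorts, 7 of the 8 log2 fold changes were negative in the aorta and 6 in fat. Their median was -0.93 in the aorta against -0.01 for all 14216 genes tested, and -0.72 in fat against 0.005 for all genes. By edgeR's quasi-likelihood test with Benjamini-Hochberg adjustment, 2 of the 8 passed an adjusted p of 0.05 in the aorta (Icosl and Cd226), where 0.542% of all genes passed (0.429% as lower). In fat 2 of the 8 passed (Icosl and Tnfsf9), where 3.93% of all genes passed (2.1% as lower). Because this comparison chose the genes, nothing is read from those counts, from the medians above or from the overlaps that follow. LYVE1+ and LYVE1- libraries did not overlap for 6 of the 8 genes in the aorta (22.4% of all genes) and 4 in fat (18.9%), and 3 of the 8, Icosl, Cd274 and Cd226, were lower in LYVE1+ without overlap in both tissues (2.69%).

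**Figure D3:**
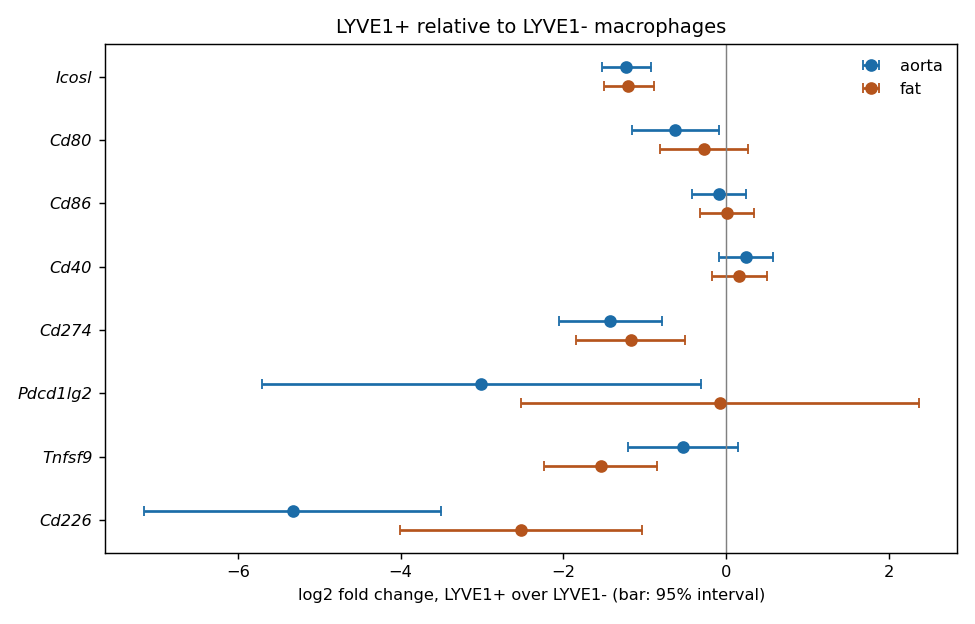
Log2 fold change of LYVE1+ over LYVE1- macrophages for each gene in aorta and fat, with bars for the 95% interval of the fit. Icosl sits near -1.2 in both tissues with narrow bars, Cd86 and Cd40 lie around 0, and Pdcd1lg2 and Cd226 have the widest bars.

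Aorta and fat were then compared within each sort, a contrast that was not itself used to choose the genes. It uses the same LYVE1+ and LYVE1- libraries as the comparison of sorts. For Icosl and Cd226, which had been seen lower in LYVE1+ cells, it is therefore not independent of the choice. Cd226 was lower in aortic than in fat LYVE1+ macrophages, by 16.7-fold (log2 fold change -4.06, SE 0.85, adjusted p = 0.0242, edgeR's quasi-likelihood test with Benjamini-Hochberg adjustment). Cd274 was higher in aortic than in fat LYVE1- macrophages, by 2.42-fold (log2 fold change 1.27, SE 0.29, adjusted p = 0.0423 by the same edgeR test). These were the only calls: 1 of 8 genes in LYVE1+ cells, where 3% of all genes passed (1.12% as lower), and 1 of 8 in LYVE1- cells, where 2.48% passed (1.66% as higher). Markers of the surrounding tissue moved with this contrast: 6 of 6 fibroblast markers had positive log2 fold changes in both sorts (2 called in each; sums of 841 to 2410 CPM against 419 to 630 CPM in LYVE1+ and 1270 to 2270 CPM against 514 to 981 CPM in LYVE1-). All 6 adipocyte markers had negative ones in both sorts, with 3 called in LYVE1+ and 2 in LYVE1- cells (sums of 1.96 to 2.86 CPM against 22.2 to 78.7 CPM, and 3.48 to 7.56 CPM against 27.8 to 78.6 CPM). Their part in any difference between tissues, that of Cd276 included, was not tested. The median log2 fold change of the 8 genes was 0.25 in LYVE1+ and 0.23 in LYVE1- cells, against -0.02 and -0.004 for all genes.

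Neither call held in all alternatives. The Cd226 difference in LYVE1+ cells kept its direction in each, from -5.1 to -2.95 on the log2 scale when a single library was left out, but its adjusted p by the edgeR test was 0.088 without aorta LYVE1+ library 2, 0.1 without aorta LYVE1+ library 3 and 0.051 without fat LYVE1+ library 1. It was 0.058 with only those 2 groups in the fit, 0.097 with the prefix in the model and 0.13 among RMM libraries alone (-3.76, SE 0.89). The log2 fold changes of all 13 T and NK cell markers were also negative in LYVE1+ cells, 1 of them called (Klrb1c, edgeR adjusted p = 0.0482), with sums of 15.8 to 58.2 CPM in aorta LYVE1+ and 14.8 to 317 CPM in fat LYVE1+, and their part in the Cd226 difference was not tested. The Cd274 difference in LYVE1- cells ran from 1.14 to 1.5 with a library left out, and the edgeR adjusted p passed 0.05 in 5 of those 12 fits; it was 0.061 without aorta LYVE1+ library 3, 0.14, 0.091 and 0.11 without aorta LYVE1- library 1, 2 and 3, 0.05 without fat LYVE1+ library 3, and 0.15 and 0.16 without fat LYVE1- library 2 and 3. With the prefix in the model the log2 fold change was 1.3, with an edgeR adjusted p of 0.77.

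Cd86 had no overlap between tissues in either sort without passing the edgeR test. Its log2 fold change, aorta over fat, was 0.52 (SE 0.15, adjusted p = 0.104) in LYVE1+ and 0.61 (SE 0.15, adjusted p = 0.0582) in LYVE1- cells by edgeR's quasi-likelihood test. DESeq2 gave adjusted p of 0.015 and 0.0017 for the same differences. The edgeR value in LYVE1- cells passed without both fat libraries numbered 1 (0.55, adjusted p = 0.018) and without fat LYVE1+ library 1 (adjusted p = 0.022).

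Cd274 in LYVE1+ cells was on the same border, with a log2 fold change of 1.03 (SE 0.31, adjusted p = 0.103 by the edgeR test). That adjusted p was 0.032 with DESeq2, 0.0095 with no filter on low counts, 0.0032 without both fat libraries numbered 1 (log2 fold change 1.45) and 0.012 without fat LYVE1+ library 1 (1.45). Cd40 had no overlap between tissues in either sort, with log2 fold changes of 0.44 (SE 0.16, adjusted p = 0.174) and 0.36 (SE 0.15, adjusted p = 0.289) by the edgeR test. Aorta and fat libraries did not overlap for 3 of the 8 genes in LYVE1+ cells (Cd86, Cd40 and Cd226, against 20.6% of all genes) and 3 in LYVE1- cells (Cd86, Cd40 and Cd274, against 21.1%).

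Icosl differed little between tissues in either sort, with a 95% interval for the log2 fold change from -0.25 to 0.37 in LYVE1+ and from -0.21 to 0.39 in LYVE1- cells. The intervals of Cd80 ran from -0.50 to 0.59 and from -0.14 to 0.93. For Tnfsf9 they ran from -0.16 to 1.22 in LYVE1+ and from -1.16 to 0.20 in LYVE1- cells. Pdcd1lg2 had intervals from -5.91 to -0.40 and from -2.62 to 2.18, and its adjusted p by the edgeR test was 0.247 and 0.956. In LYVE1- cells the Cd226 interval ran from -2.64 to 0.13 (adjusted p = 0.381 by the same edgeR test).

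**Figure D4:**
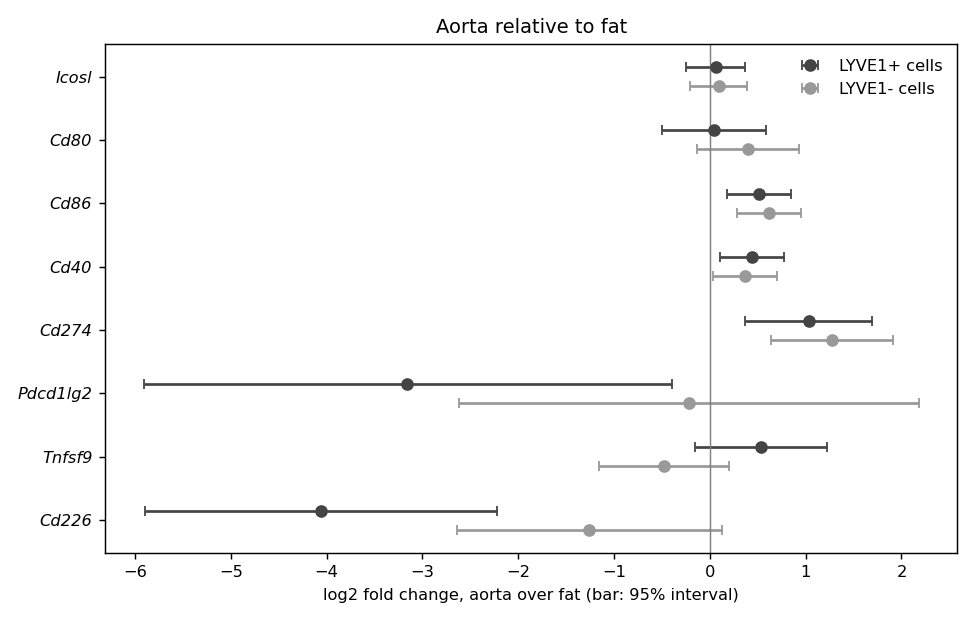
Log2 fold change of aorta over fat for each gene in LYVE1+ and LYVE1- cells, with bars for the 95% interval of the fit. Cd86, Cd40 and Cd274 lie above 0 in both sorts, Icosl lies on 0, and Cd226 in LYVE1+ cells lies lowest at -4.06.

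Whether the difference between sorts itself differed between tissues was tested as an interaction. None of the 8 genes passed by edgeR's quasi-likelihood test with Benjamini-Hochberg adjustment, where 0.155% of all genes did, and DESeq2 called none of them either. At an unadjusted p below 0.05 there were 2 of the 8, Cd226 and Tnfsf9, and 862 of all 14216 genes. The interaction of Cd226 was -2.81 on the log2 scale (SE 1.1, unadjusted p = 0.0201, edgeR adjusted p = 0.722) and that of Tnfsf9 was 1.01 (SE 0.45, unadjusted p = 0.0418, edgeR adjusted p = 0.808). For Icosl the interaction was -0.03 with a 95% interval from -0.46 to 0.39, so that a difference between tissues larger than those bounds was outside the interval.

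Ordered by group mean, Icosl ran from aorta LYVE1- over fat LYVE1- and aorta LYVE1+ to fat LYVE1+, and only the step from fat LYVE1- to aorta LYVE1+ (2.2-fold) had no overlap between libraries. Cd274 ran in the same order, and its only step without overlap was from aorta LYVE1- to fat LYVE1- (2.42-fold). Cd86 had its single clear step between the aortic and the fat groups (1.43-fold from aorta LYVE1+ to fat LYVE1+). Cd226 ran from fat LYVE1- over aorta LYVE1- and fat LYVE1+ to aorta LYVE1+, with its only step without overlap at the end (19.4-fold between the group means). Neighbouring groups overlapped at every step for Cd80 and for Tnfsf9.

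Other ligands that macrophages offer to T cells were taken from a list of 24 genes. That list and the lists of receptors and CD40 signalling below were fixed by function with earlier results of these data known. Their calls may therefore not be independent of those results. Of the 24 genes, 13 were expressed enough to be tested. In the aorta 1 was higher and 1 lower in LYVE1+ cells, where 0.542% of all genes were called: Ceacam1, a ligand of TIM-3, rose (30.2 ± 3.86 CPM in LYVE1- and 56.8 ± 6.42 CPM in LYVE1+, SD, n = 3, log2 fold change 0.91, SE 0.17, edgeR adjusted p = 0.0375), and Fgl2, a secreted and membrane-bound ligand with suppressive activity on T cells, fell (258.1 ± 45.8 to 124.7 ± 8.23 CPM, SD, n = 3, log2 fold change -1.05, SE 0.21, edgeR adjusted p = 0.0498). These aortic calls held in 3 (Ceacam1) and 2 (Fgl2) of the 12 fits that left out a library: without fat LYVE1+ library 1 and fat LYVE1- library 1 for both genes, and without fat LYVE1+ library 3 for Ceacam1. Over those 12 fits the edgeR adjusted p ran from 0.013 to 0.24 for Ceacam1 and from 0.013 to 0.27 for Fgl2, and with the prefix in the model it was 0.57 for both.

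In fat 1 of the 13 rose and 2 fell, where 3.93% of all genes were called. Ceacam1 rose from 39.5 ± 5.23 to 78.9 ± 15 CPM (SD, n = 3, log2 fold change 1, SE 0.17, edgeR adjusted p = 0.00641). Fgl2 fell from 235.5 ± 60.5 to 97.4 ± 20.3 CPM (SD, n = 3, log2 fold change -1.27, SE 0.21, edgeR adjusted p = 0.00531). Cd276, the B7 family member B7-H3, fell from 11.7 ± 5.43 to 2.12 ± 0.649 CPM (SD, n = 3, log2 fold change -2.49, SE 0.41, edgeR adjusted p = 0.00429). All 3 passed in each of the 12 fits that left out a library. With the libraries paired by number, 8 genes of the 3 pathway lists were called in fat in place of 3.

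Cd276 was also the only gene of that list called between tissues (1 of 13 in LYVE1+ cells, where 3% of all genes were called). In LYVE1+ cells it was 8.04-fold higher in the aorta (16.8 ± 6.97 CPM, SD, n = 3) than in fat, with a log2 fold change of 3.01 (SE 0.41, edgeR adjusted p = 0.00229), and the call held in all 12 fits without a library. Its aortic sorts were alike in mean, 16.8 CPM in LYVE1+ and 17.0 CPM in LYVE1-. The interaction was 2.48 (SE 0.54, edgeR adjusted p = 0.14), and it passed with DESeq2 (adjusted p = 0.0059) and with no filter on low counts (0.0081). In LYVE1- cells no gene of the list was called between tissues, and the 2 most abundant, Vsir (the checkpoint ligand VISTA) and Lgals9 (galectin-9), differed by -0.05 (SE 0.16) and 0.03 (SE 0.17) on the log2 scale.

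The genes that the 8 proteins bind on T cells, and related receptors, formed a list of 18, of which 13 were tested. None was called between sorts, and 1 was called between tissues, in LYVE1- cells, where 2.48% of all genes were called: Cd200r1, an inhibitory receptor that macrophages themselves carry, was lower in the aorta (49.3 ± 3.8 against 79.5 ± 8.12 CPM, SD, n = 3, log2 fold change -0.69, SE 0.17, edgeR adjusted p = 0.0476). It passed in 2 of 12 fits without a library, those without fat LYVE1+ library 1 and fat LYVE1- library 1, with edgeR adjusted p from 0.014 to 0.19. The edgeR adjusted p of Cd200r1 was 0.056 with only the compared groups and 0.75 with the prefix in the model. The next most abundant, Cd28, ranged over the aortic libraries from 4.58 to 11.8 CPM and over the fat libraries from 8.41 to 34.7 CPM.

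Signalling below CD40 was followed with 14 genes, all of them tested. All 14 log2 fold changes were negative in the aorta (median -0.41) and in fat (median -0.39), against medians of -0.01 and 0.005 for all genes, but none was called in either tissue by edgeR's quasi-likelihood test with Benjamini-Hochberg adjustment. The most abundant member, Tnfaip3, the NF-kB feedback inhibitor A20, was at 736.8 ± 259 CPM in aorta LYVE1+ and 1244 ± 319 CPM in aorta LYVE1- (SD, n = 3, log2 fold change -0.76, SE 0.25, edgeR adjusted p = 0.262). In fat it was at 647.7 ± 65.2 and 1254 ± 136 CPM (SD, n = 3, log2 fold change -0.95, SE 0.25, edgeR adjusted p = 0.0582, and 0.049 with the libraries paired by number). Between tissues 1 of the 14 was called (2.48% of all genes in LYVE1- cells), Birc3, an inhibitor of apoptosis in the CD40 receptor complex, which was higher in aortic LYVE1- cells (477.2 ± 38.4 against 287.5 ± 28.2 CPM, SD, n = 3, log2 fold change 0.73, SE 0.16, edgeR adjusted p = 0.0354). That call held in 4 of 12 fits without a library, those without aorta LYVE1+ library 2 or 3 and without library 1 of either fat sort, with edgeR adjusted p from 0.017 to 0.15, and was 0.86 with the prefix in the model.

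**Figure D5:**
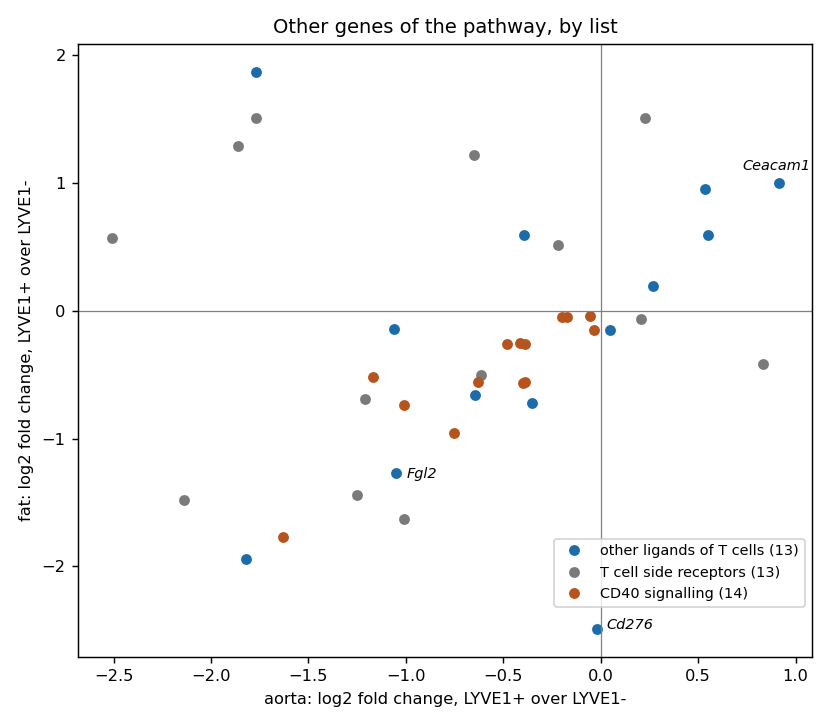
Log2 fold change of LYVE1+ over LYVE1- in the aorta (horizontal) and in fat (vertical) for the 40 tested pathway genes, coloured by list. The 14 CD40 signalling genes all lie below 0 on both axes, and the 3 labelled genes are those called in fat.

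Markers of antigen presentation and of other cell types were read over the same sorts. Between sorts, 0.542% of all genes were called in the aorta (0.429% as lower) and 3.93% in fat (2.1% as lower). The 7 MHC class II genes, which macrophages themselves express, were all called lower in LYVE1+ cells of both tissues. They summed to 2110 to 3320 CPM in aorta LYVE1+, 38200 to 43700 CPM in aorta LYVE1-, 3410 to 12600 CPM in fat LYVE1+ and 45900 to 52100 CPM in fat LYVE1-. The 10 dendritic cell markers summed to 326 to 350 CPM in aorta LYVE1+ against 428 to 540 CPM in aorta LYVE1-, and to 442 to 594 CPM against 279 to 580 CPM in fat, where the sums overlapped. The largest terms of the aortic sums were Cd209a (120 to 146 against 160 to 195 CPM) and Siglech (145 to 151 against 124 to 180 CPM). Ccr7, also on the list, was at 1.05 to 30.7 CPM in aorta LYVE1+ against 73.5 to 96.5 CPM in aorta LYVE1-. In fat Ccr7 overlapped between sorts, at 4.33 to 214 CPM in LYVE1+ and 29.3 to 232 CPM in LYVE1-. Of the 10 log2 fold changes, 9 were negative and 1 positive in the aorta (median -1.93), and 6 were negative and 4 positive in fat (median -0.29). Of these 10, 1 was called lower in LYVE1+ cells of the aorta, Clec9a, a marker of cross-presenting dendritic cells, with no count against 1.66 to 8.56 CPM. In fat 2 were called higher in LYVE1+ cells: Siglech, a marker of plasmacytoid dendritic cells (62.3 to 69.7 against 13.7 to 24 CPM), and Cd209a (216 to 319 against 155 to 194 CPM), while Clec9a was at 0.0867 to 0.706 CPM in LYVE1+ and 1.19 to 5.25 CPM in LYVE1-.

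No mast cell or B cell marker was called between sorts in either tissue. The 7 mast cell markers summed to 1.85 to 12.3 CPM in aorta LYVE1+ against 46.6 to 78.1 CPM in aorta LYVE1-, and to 2.22 to 49.3 CPM against 10.4 to 17.4 CPM in fat, with Kit at no count in aorta LYVE1+. B cell markers other than Ighm summed to 19.4, 10.7 and 83.7 CPM in aorta LYVE1+ and to 132, 150 and 48.1 CPM in aorta LYVE1-. In fat they came to 537, 23.6 and 25.7 CPM in LYVE1+ and to 214, 43.8 and 43.1 CPM in LYVE1-. With Ighm included, 7 of 8 log2 fold changes were negative in the aorta (median -1.63), and all 8 were positive in fat (median 0.922). The 6 eosinophil markers summed to 1.78 to 3.61 CPM in aorta LYVE1+ against 10.6 to 29.4 CPM in aorta LYVE1-. In fat they came to 6.35 to 39.9 CPM against 5.59 to 22.4 CPM. Of 5 tested, 4 were negative and 1 positive in the aorta, with 1 called lower (0.429% of all genes). In fat 1 was negative and 3 were positive, with 0 called. The part of these cell types in the differences of the 8 genes was not tested.

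The genes whose pattern over the 12 libraries was most like that of Icosl and of Cd226 were found among 10069 genes by Pearson's r of log2 CPM, as a description in which the libraries share their 4 groups. For Icosl they were Mpeg1, which encodes perforin-2 (r = 0.949), the Fc receptor gene Fcgr4 (r = 0.945) and Rgs1, a regulator of G protein signalling (r = 0.933). Mpeg1, for example, was at 84.0 ± 9.6 CPM in aorta LYVE1+ and 379.9 ± 110 CPM in aorta LYVE1-, and at 91.6 ± 31.2 and 436.1 ± 68.4 CPM in fat (SD, n = 3). For Cd226 they were Ptger2, a prostaglandin E2 receptor gene (r = 0.971), Pmaip1, which encodes the apoptosis regulator Noxa (r = 0.97), and Plbd1, a phospholipase B domain gene (r = 0.966). Ptger2 was at 0.878 ± 0.214 CPM in aorta LYVE1+, 14.3 ± 15.1 CPM in aorta LYVE1-, 5.41 ± 2.13 CPM in fat LYVE1+ and 24.3 ± 5.54 CPM in fat LYVE1- (SD, n = 3), the same order of groups as Cd226.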

How the data were processed

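The authors deposited raw counts per gene for 12 libraries; STAR 2.5.2b, featureCounts 1.5.0, edgeR 3.14.0 and GRCm38 are named per the submitters' processing notes. Libraries were made from total RNA by Smart-seq2, a full-length protocol that does not mark strand, per the labels' protocols. Not given in the sources used here: the annotation release, the strand setting and any filter. The deposited log2 CPM table was not used.

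Symbols, coordinates and exonic lengths came from GENCODE M21, matched by Ensembl identifier for 46005 of 46517 genes; it may not be the authors' release. The deposited counts were fitted together for the 12 libraries by quasi-likelihood in edgeR 4.0.16 (R 4.3.3) with TMM factors, filterByExpr (14216 genes kept, the 8 members included) and 1 mean per group, leaving 8 residual degrees of freedom. A call is a Benjamini-Hochberg adjusted p below 0.05 over all genes in a two-sided test. The SE is the log2 fold change divided by the square root of F. CPM are TMM-scaled, including sums over marker lists. RPKM divide CPM by exonic length. Promoter windows came from a RefSeq table (GRCm38.p6) that held 4 of the 8 genes; Cd80 was left out because its window lies inside the annotated gene. Fits were checked on simulated counts.

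The members and lists were chosen with earlier results of these data known. Named are all members, up to 4 called genes per pathway list and comparison (or the 2 most abundant), and the 3 genes most like Icosl and Cd226 with a mean log2 CPM of at least 2. Replicates were compared and none was a duplicate (chi-square per degree of freedom 7.4 to 91.3). Deviations of libraries with the same number correlated at 0.486, 0.279 and 0.184 in fat, above 0.1, and at -0.0441, -0.0767 and -0.17 in the aorta, so the numbers were taken to pair the fat libraries, from the data and not from the labels; fat libraries 2 and 3 correlated as closely across numbers (0.192 and 0.225). Alternatives were DESeq2 1.42.0, RLE factors, no filter, only the compared groups, the library prefix, a replicate block, and fits without 1 library or without both fat libraries numbered 1. Depth is given in the report; counting intervals cover counting error only, since reads carry no molecular identifiers.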

Additional observations from a re-analysis of the deposited data

How the results depend on the processing

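Over the alternatives, no called value among the 8 genes or the named pathway genes changed sign. In the tested comparisons of the 8 genes (aorta against fat, and the interaction), a call was lost 14 times and gained 8 times. In the described comparison of sorts, where crossings of the threshold were not counted gene by gene, 14 values moved by more than their SE. Counts of calls depended on the setting, and the cause was not tested.

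Members called (2 in the aorta, 2 in fat, 1 between tissues in LYVE1+ and 1 in LYVE1- cells) came to 4, 3 and 2 with DESeq2 in fat, LYVE1+ and LYVE1-. With no filter they were 4 in fat and 2 in LYVE1+. With the prefix in the model they were 0 in the aorta, LYVE1+ and LYVE1-, and with only the compared groups 0 in LYVE1+. Without both fat libraries numbered 1 they were 4, 2 and 2 in fat, LYVE1+ and LYVE1-. Among RMM libraries alone they were 0 in LYVE1+, and among RHH libraries alone 0 in the aorta, subsets chosen after seeing the data. With 1 library left out they ran from 1 to 3 in the aorta, 1 to 4 in fat, 0 to 1 in LYVE1+, 0 to 2 in LYVE1- and 0 to 0 for the interaction.

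Other pathway genes called (2, 3, 1, 2 and 0 for aorta, fat, LYVE1+, LYVE1- and interaction) came to 4, 6, 3 and 1 with DESeq2 in the aorta, fat, LYVE1+ and interaction. With no filter they were 7, 6, 4, 4 and 1 in that order of comparisons. With only the compared groups they were 6 in the aorta and 1 in LYVE1-. With the prefix they were 0 in the aorta, 5 in fat and 0 in LYVE1-, and among RHH libraries 0 in the aorta. Without both fat libraries numbered 1 they were 8, 7, 6 and 9. With 1 library left out they ran from 0 to 3, 3 to 9, 1 to 2, 0 to 3 and 0 to 0.

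With the replicate block, members called were 4 in fat, and other pathway genes called were 5 in the aorta and 8 in fat; the block changed no other count of these by over 1.5 times. The numbers paired the libraries in fat only, and aorta and fat came from different mice, so the tissue comparisons could not be paired.

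Of all 14216 genes, the counts called were 77 (aorta), 558 (fat), 426 (LYVE1+), 353 (LYVE1-) and 22 (interaction). DESeq2 called 360, 1013, 922, 847 and 100. With no filter 336, 820, 820, 647 and 72 were called. The compared groups alone gave 294 in the aorta, 206 in fat and 243 in LYVE1+. The prefix gave 2 in the aorta, 181 in LYVE1+, 7 in LYVE1- and 0 for the interaction. The block gave 243 in the aorta and 915 in fat. Without both fat libraries numbered 1 the counts were 566, 887, 890, 1024 and 84. RMM libraries gave 273 in fat and 91 in LYVE1+, and RHH libraries gave 22 in the aorta.

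Low counts limited Pdcd1lg2 and, in aorta LYVE1+ cells, Cd226, and fat LYVE1+ library 1 was the shallowest.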
